A study of Homo sapiens with 13 samples.

Results

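The ERBB receptors and their ligands were examined in maps of accessible chromatin from 2 small cell lung cancer (SCLC) lines. The family was taken as 10 genes by name, of 20007 protein-coding genes in GENCODE release 44: the receptors EGFR, ERBB2, ERBB3 and ERBB4, the neuregulins NRG1, NRG2, NRG3 and NRG4, and the ligands AREG (amphiregulin) and EREG (epiregulin). H82 belongs to the NEUROD1 subtype of SCLC, and both are established lines of WT genotype grown in RPMI with serum. The Tn5 transposase was used to cut open chromatin (ATAC-seq) in 4 untreated H146 libraries, 3 H146 libraries treated with 100 nM FHD-286, an inhibitor of the chromatin remodelling ATPases SMARCA4 and SMARCA2, for 14 days, 3 untreated H82 libraries and 3 H82 libraries given the same treatment. The deposited files hold 1 merged list of regions (an atlas) for each line, made from untreated and treated libraries together. Each quantity therefore had 1 value per line and no replicate error, the difference between the lines was not tested, and treated cells could not be compared with untreated cells.

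ERBB receptors are tyrosine kinases of the cell surface that signal as pairs. ERBB2 has no known ligand of its own and ERBB3 has a kinase of very low activity, so both work mainly with a partner, and the pair of ERBB2 with ERBB3 is a strong activator of PI3K. Amphiregulin binds EGFR, epiregulin binds EGFR and ERBB4, and the neuregulins bind ERBB3, ERBB4 or both. The signal runs through adaptors to the RAS-MAPK and PI3K-AKT pathways. In the lung these receptors act in epithelial growth and repair, while high-grade neuroendocrine tumours such as SCLC are known for low EGFR. An accessible region marks DNA that Tn5 can reach and is not a measure of expression.

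The H82 atlas held 206927 regions covering 167.0 Mb and the H146 atlas 174093 regions covering 138.6 Mb, so that H82 had 1.19 times the regions and 1.20 times the covered bases. The depth behind the regions is unknown. Number of libraries (6 and 7), depth, DNA copies and the response to FHD-286 cannot be told apart from the line. A region of an atlas may come from treated libraries alone or from untreated ones alone. NEUROD1 had a region within 1 kb of its transcription start site (TSS) in H82 only, whereas POU2F3 and YAP1 had one in both lines, as did all 4 neuroendocrine genes INSM1, SYP, CHGA and NCAM1. Of 6 genes that mark other cell types, PTPRC and ALB had no TSS region in either line, COL1A1 and PECAM1 had one in both, MYH6 in H82 only and GFAP in H146 only. In H82 the whole body of MYH6 lay inside 1 region (100% covered), and the canonical start of GFAP had a region in neither line.

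At the 5′ end of the gene (TSS ± 1 kb), 9 of the 10 genes had a region in both lines, against 75.4% of all protein-coding genes. The other gene, ERBB3, had one in H82 only, a state found at 5.09% of all genes. None had one in H146 only (1.86% of all genes) and none lacked one in both lines (17.7%). Annotated genes often have several starts, so the starts of full-length protein-coding transcripts, joined within 500 bp, were counted next. The 10 genes had 27 such starts. A region was present in both lines at 17 of them (67% of all 32900 starts) and in neither line at 7 (23.8%). It was present at 3 for H82 alone (6.62%) and at 0 for H146 alone (2.6%). The 3 starts with a region in H82 only were the most 5′ start of ERBB3, a start of NRG1 at 975 kb into the gene and a start of NRG3 at 2.49 kb.

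**Figure D1:**
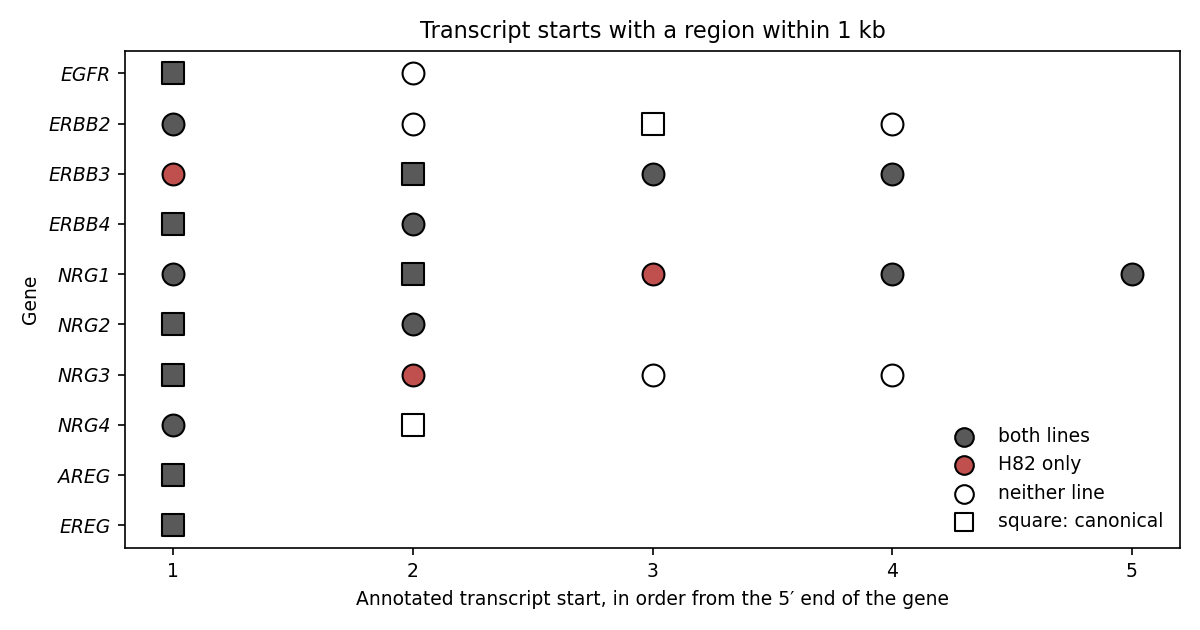
Annotated transcript starts (x axis, in order from the 5′ end of the gene) of the 10 genes (y axis), filled grey where both lines had a region within 1 kb, red for H82 only and white for neither, with squares for the Ensembl canonical start. Red marks stand at 1 start each of ERBB3, NRG1 and NRG3, and the canonical starts of ERBB2 and NRG4 are white.

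Over the locus, defined as the gene body and 50 kb to either side, 8 of the 10 genes had more regions in H82 than in H146 (62.4% of all genes) and 7 had a larger covered share in H82 (64.2% of all genes). A difference of at least 2-fold in covered share was seen for NRG2 and NRG3, both higher in H82 (2 of 10, against 15.2% of all genes), and for no gene in the direction of H146 (1.44% of all genes). NRG3 was no longer past 2-fold with regions of at least 500 bp alone. The median log2 ratio of covered share, H82 over H146, was 0.53 over the 10 genes and 0.20 over all genes. The median of the 10 genes was 0.26 after subtracting the ratio of the whole genome and 0.15 after subtracting that of each gene's chromosome. Without any subtraction it was 0.48 for the receptors, 1.13 for the neuregulins and -0.53 for AREG and EREG. The neuregulins thus had the highest median of the 3 groups, although NRG1 (0.33) lay below EGFR and ERBB2, and both EGFR ligands lay on the H146 side.

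**Figure D2:**
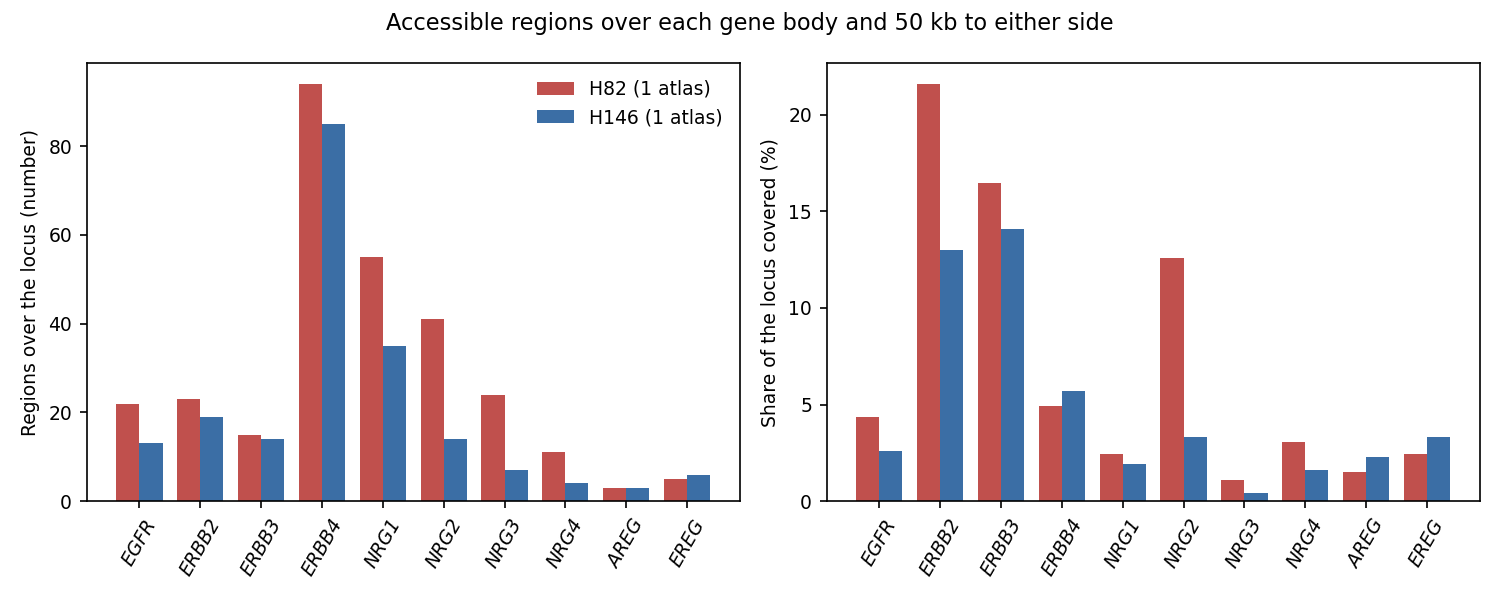
Number of regions (left) and covered share in percent (right) over the locus of each of the 10 genes in H82 (red) and H146 (blue), 1 atlas per line and so without error bars. The largest gap in covered share relative to its level is at NRG2 (12.6% and 3.33%), and AREG and EREG have the higher bars in H146.

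**Figure D3:**
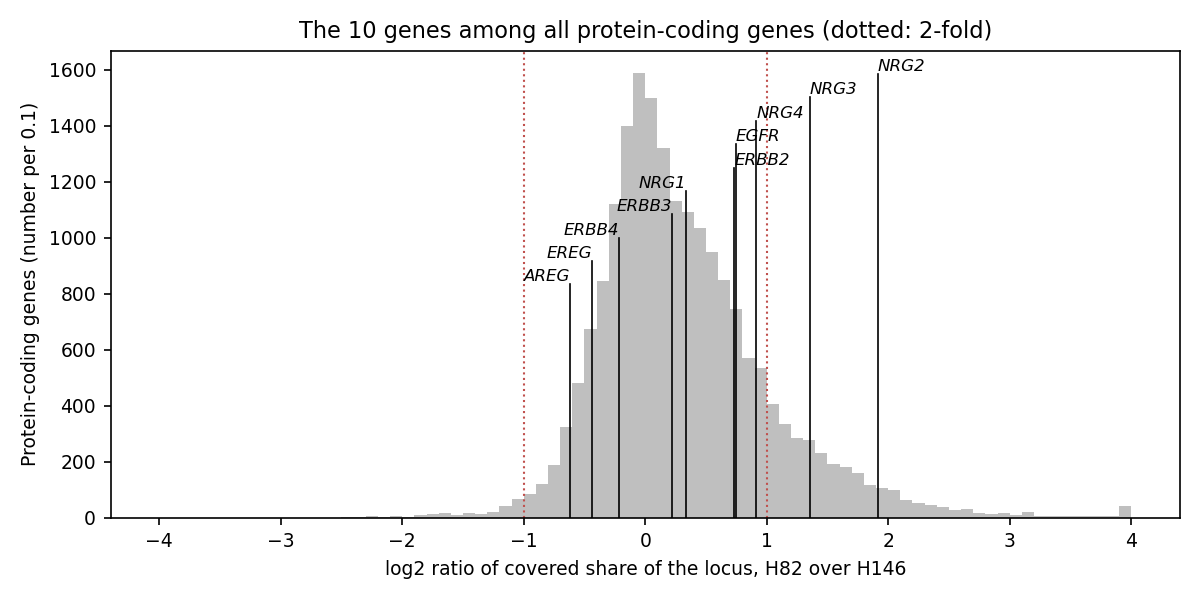
Histogram of the log2 ratio of covered share of the locus, H82 over H146, over all protein-coding genes with a finite ratio (grey, values beyond 4 drawn at 4), with the 10 genes as vertical lines of arbitrary height and the 2-fold limits dotted. NRG2 at 1.91 and NRG3 at 1.36 lie beyond the upper limit, and AREG at -0.62 is the lowest of the 10.

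EGFR, the receptor of EGF, amphiregulin and several other ligands, lies on chromosome 7 from 55019017 to 55211628 (hg38, plus strand). Its start was covered by a region of 1630 bp in H82 and of 888 bp in H146, and both began at the same base, 410 bp before the TSS. The locus held 22 regions in H82 and 13 in H146, covering 4.36% and 2.60% of it, a log2 ratio of 0.75 that stood at percentile 77.3 of all genes. All but 1 of the H146 regions were shared with H82, against 70.5% of regions in the whole H146 atlas. Of the 22 H82 regions 12 were shared, near the 59.3% of the whole H82 atlas. The other 10 were found in H82 only, 3 of them upstream of the gene where H146 had none. The log2 ratio of region numbers was 0.74 with an exact 95% interval from -0.29 to 1.87, which covers counting only. In the 1 Mb to either side of the locus the log2 ratio of covered bases was 0.20.

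ERBB2, the receptor without a known ligand of its own and the target of trastuzumab, lies on chromosome 17 from 39687914 to 39730426 (plus strand). Its most 5′ start was covered in both lines, by regions of 1691 bp (H82) and 912 bp (H146). The same regions also lay within 1 kb of the canonical start of PGAP3, a gene on the opposite strand, so the region cannot be assigned to either gene. The canonical start of ERBB2 is 12.15 kb further in, and no region lay within 1 kb of it in either line. The nearest region to that group of starts was 2872 bp away for H82 and 9797 bp away for H146. ERBB2 and NRG4 were the 2 members without a region at the canonical start (15.7% of all genes), while the other 8 had one in both lines (77.8% of all genes). The locus was nonetheless rich in regions, with 23 in H82 and 19 in H146 covering 21.6% and 13.0%, and the upstream flank alone held 10 in each line. Regions took up 9.004% of the gene body for H82 and 3.84% for H146. The log2 ratio over the locus was 0.73, and that of the surrounding 1 Mb to either side was 0.76.

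ERBB3, the kinase-poor partner that carries the docking sites for PI3K, lies on chromosome 12 (56076799 to 56103505, plus strand). It had in H82 a region of 1383 bp that lay upstream of the gene and left 276 bp between its end and the most 5′ start. H146 had none within 1 kb. Of the 31-base words in this region, 93.9% occurred elsewhere in hg38, and the part of this in the difference between the lines was not tested. The canonical start of ERBB3, 3.37 kb downstream, had a region in both lines, of 2949 bp (H82) and at most 1963 bp (H146). The locus held 15 regions in H82 and 14 in H146, covering 16.5% and 14.1%. The log2 ratio was 0.22 over the locus, -0.02 over the gene body and -0.05 after subtracting the ratio of the whole genome, so no direction can be given for ERBB3. GC content within 500 bp of the most 5′ start was 56.2%, and at the canonical start 63.9%. The median over all genes was 61.7% where both lines had a TSS region and 54.3% where only H82 had one.

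ERBB4, a neuregulin receptor known from neuronal development, spans 1163 kb of chromosome 2 (211375717 to 212538841, minus strand). It had the most regions of the 10 genes, 94 in H82 and 85 in H146. Most were common to both lines (72 of the H82 and 69 of the H146 regions, against 59.3% and 70.5% of the whole atlases). Its start was covered by nearly the same region, 4760 bp (H82) and 4717 bp (H146) wide. The covered share was lower in H82, 4.90% against 5.69%, a log2 ratio of -0.21, although H82 had more regions. Regions of the gene body had a median width of 450 bp for H82 and 585 bp for H146. Among 323 genes with a body of at least 500 kb, ERBB4 stood at percentile 76.6 in H82 and 77.6 in H146 for regions per 100 kb (7.57 and 6.88). With the gene divided into 10 equal parts from its 5′ end, both lines had 14 regions in part 3, where they covered 4.702% (H82) and 8.75% (H146). Part 8 was nearly empty, with 1 region in H82 and 0 in H146.

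**Figure D4:**
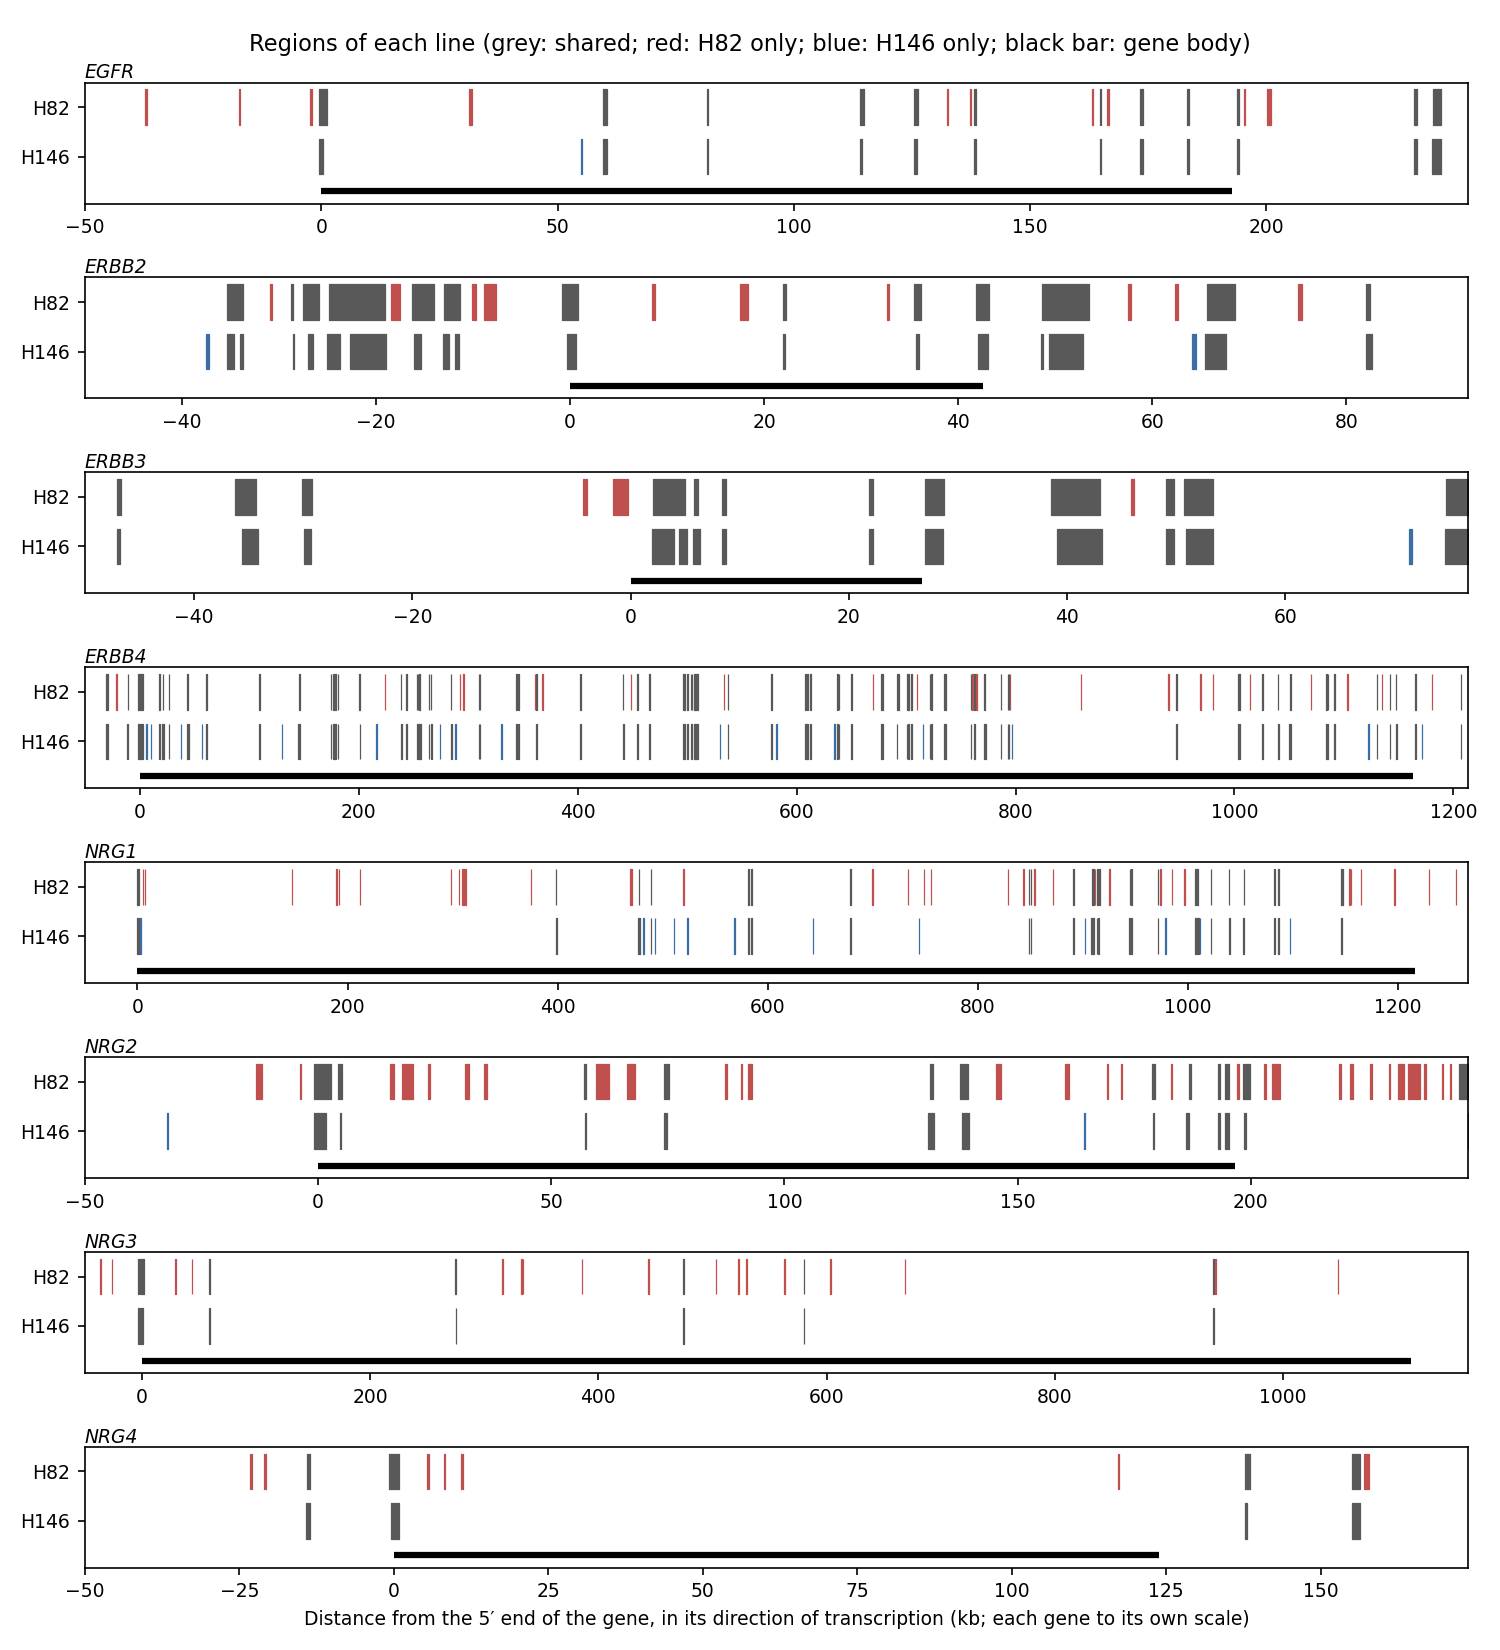
Regions of H82 (upper row of each panel) and H146 (lower row) along the receptor and neuregulin genes, by distance in kb from the 5′ end of the gene, each gene to its own scale, with shared regions grey, H82-only red, H146-only blue and the gene body as a black bar. The narrowest regions are drawn at a minimum line width. Red marks crowd the introns and downstream flank of NRG2 (29 H82-only regions), and ERBB4 is mostly grey. In the whole atlases 59.3% of H82 and 70.5% of H146 regions were shared.

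NRG1, which encodes the best known ligand of ERBB3 and ERBB4 and has several promoters, spans 1216 kb of chromosome 8 (31639222 to 32855666, plus strand). Of its 5 transcript starts 4 had a region in both lines, the canonical start among them. The start at 975 kb had a single region of 347 bp within 1 kb in H82 and none in H146. That region lay 978 bp from the start, at the edge of the window, and the nearest H146 region was 3242 bp away. The locus held 55 regions in H82 and 35 in H146, but the covered shares were close, 2.46% and 1.95% (log2 ratio 0.33). Both lines shared 23 regions, 32 were found in H82 only and 12 in H146 only, so NRG1 was, with ERBB4, one of the 2 genes with more than 2 regions found in H146 only. In the whole atlases 59.3% of H82 and 70.5% of H146 regions were shared. H82 had 4 regions each in parts 2 and 3 of 10 equal parts of the gene, where H146 had 0, and the longest stretch of the body without a region was 140.3 kb in H82 and 395.4 kb in H146. In part 5 the order was the other way, with 4 regions in H82 and 7 in H146.

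NRG2, a neuregulin of the nervous system, lies on chromosome 5 (139846779 to 140043299, minus strand) and showed the largest ratio of covered share of the locus among the 10 genes, while NRG3 had the larger ratio of region numbers and of covered gene body. The locus held 41 regions in H82 and 14 in H146, which covered 12.6% and 3.33% of it, a 3.77-fold difference at percentile 95.9 of all genes. The log2 ratio of numbers was 1.52 with a counting interval from 0.65 to 2.54. In the whole atlases 59.3% of H82 and 70.5% of H146 regions were shared. At NRG2 all but 2 of the H146 regions were shared, whereas 29 of the 41 H82 regions were found in H82 only. Of these 15 lay in introns, 12 in the downstream flank and 2 in the upstream flank, and the 2 H146-only regions lay 1 each in an intron and in the upstream flank. The widest H82-only region of the gene was 2649 bp, in an intron 61.0 kb from the start (139980989 to 139983637). At the start itself both lines had a region, 3743 bp (H82) and 2451 bp (H146) wide. The surroundings moved in the same direction, with a log2 ratio of 1.12 over 1 Mb to either side of the locus, against 0.15 for chromosome 5 as a whole, and the part of this in the difference was not tested.

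NRG3, a ligand of ERBB4 found mainly in the nervous system, spans 1112 kb of chromosome 10 (81875194 to 82987179, plus strand) and was sparse in both lines. The locus held 24 regions in H82 and 7 in H146, and all 7 H146 regions were shared (70.5% of the whole H146 atlas). Regions took up 1.09% and 0.426% of it, a 2.56-fold difference, and with regions of at least 500 bp alone the log2 ratio was 0.83, under 2-fold. Among the 323 long genes NRG3 stood at percentile 8.82 in H82 and 2.94 in H146 for regions per 100 kb of gene body. The region at the start began at the same base in both lines and was 3061 bp (H82) and 1830 bp (H146) wide. The wider H82 region reached to within 712 bp of the second transcript start, and the H146 region ended 1943 bp from it, so that start was counted for H82 alone. Of the H82-only regions 15 lay in introns, and the widest of them was 919 bp (82319078 to 82319996). Neither line had a region in part 2 or part 8 of 10 equal parts of the gene. The log2 ratio of the surrounding 1 Mb to either side was 0.34, and that of chromosome 10 was -0.13.

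NRG4, a ligand of ERBB4 known from adipose tissue, lies on chromosome 15 (75935969 to 76059795, minus strand). Its most 5′ start had a region in both lines, 1706 bp in H82 and 1430 bp in H146, which also covered the start of the neighbouring gene TMEM266. The canonical start, 47.4 kb further in, had none within 36179 bp (H82) or 46457 bp (H146). The locus held 11 regions in H82 and 4 in H146, covering 3.06% and 1.62%, and all 4 H146 regions were shared (70.5% of the whole H146 atlas). The surroundings differed by more than the gene, with a log2 ratio of 1.69 over 1 Mb to either side against 0.91 at the locus. After subtracting the ratio of chromosome 15 the value for NRG4 was -0.02, so its difference was no larger than that of its chromosome.

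AREG and EREG, which encode ligands released by cleavage from the cell surface, lie near each other on the plus strand of chromosome 4 (74445136 to 74455005 and 74365145 to 74388749), and their loci share a pair of regions. AREG had 3 regions in each line, all shared (59.3% of the whole H82 and 70.5% of the whole H146 atlas), and EREG 5 in H82 and 6 in H146. Regions took up 1.499% of the AREG locus for H82 and 2.296% for H146, and 2.45% and 3.31% of the EREG locus. Both starts carried a region in both lines, and the H146 region was the wider one at each. At AREG it was 970 bp against 656 bp in H82, and at EREG 1343 bp against 1167 bp. The log2 ratios of -0.62 and -0.44 stood at percentiles 4.78 and 9.51 of all genes. With so few regions the counting interval of the number ratio was wide, from -2.90 to 2.90 on the log2 scale for AREG.

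Each region counted once, 161 of 291 H82 regions at the 10 loci met a region of the H146 atlas (1 bp of overlap or more) (55.3%, exact Clopper-Pearson 95% interval 49.4 to 61.1%), against 59.3% of the whole H82 atlas. In the other direction 163 of 198 H146 regions were shared (82.3%, interval 76.3 to 87.4%), against 70.5% of the whole H146 atlas. There were thus 130 H82-only and 35 H146-only regions. The intervals cover counting only, and neighbouring regions are not independent. Line-only regions were narrow, with a median of 328 bp in H82 and 331 bp in H146, against 599 bp and 693 bp for shared regions. In the whole atlases the medians were 377 bp and 315 bp for line-only and 610 bp and 662 bp for shared regions. More than 50% of the 31-base words occurred elsewhere in hg38 for 10 of the 130 H82-only regions (7.69%), 1 of the 35 H146-only regions (2.86%), 3 of the 161 shared H82 regions (1.86%) and 2 of the 163 shared H146 regions (1.23%).

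Short words that transcription factors read were counted on both strands in the line-only regions. CAGATG, the E-box form favoured by NEUROD1, occurred 72 times in 63.4 kb of H82-only regions (1.13 per kb) and 5 times in 12.8 kb of H146-only regions (0.390 per kb). TAATCC, the word of OTX2, occurred 74 times (1.17 per kb) and 5 times (0.390 per kb). The log2 ratios were 1.54 (counting interval 0.25 to 3.21) and 1.58 (0.29 to 3.24). In all line-only regions of the atlases they were 0.47 and 1.49. TGTTTAC, the word of FOXA factors, had 8 and 5 matches, a log2 ratio of -1.63 with an interval from -3.42 to 0.33. However, the reversed word CATTTGT gave -1.66 at the 10 loci. In all line-only regions of the atlases TGTTTAC gave -1.28 and CATTTGT -0.54. The part of base composition in the value at the 10 loci was not tested. The reversed words of the first pair gave 0.28 for GTAGAC and -0.64 for CCTAAT. The word of AP-1, TGANTCA, had 27 and 4 matches, a log2 ratio of 0.45 with an interval from -1.07 to 2.42. Its ratio in all line-only regions of the atlases was -0.46. GCCNNNGGC (AP-2) had 29 matches in H82-only regions, AACAAAG (SOX) 17 and CATTCCA (TEAD) 4, and none of these words was found in the H146-only regions, of which there were few. In all line-only regions of the atlases the log2 ratios of these words were 0.14, -0.33 and 0.20, and the reversed TEAD word had 7 matches against 0 at the 10 loci. A match is a description of the letters and not a bound site.

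Among the short line-only intronic regions (at most 300 bp) with most words, the one at EGFR found in H146 only is shown, since it is a stretch inside a receptor gene that H82 lacked. It is written 5′ to 3′ in hg38 coordinates, with matches to the words above in capitals:
EGFR, H146 only, chr7:55073927-55074147, plus strand: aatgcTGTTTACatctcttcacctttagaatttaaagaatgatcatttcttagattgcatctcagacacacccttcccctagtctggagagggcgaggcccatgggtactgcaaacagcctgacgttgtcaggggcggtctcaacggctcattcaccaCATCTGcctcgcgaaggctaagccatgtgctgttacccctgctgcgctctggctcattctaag

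This region carried the FOXA word and the NEUROD1 E-box, and none of its 31-base words was found elsewhere in the genome (0%). Among all line-only regions of at most 300 bp, the OTX2 word was found in 28.4% of 28801 in H82 and 9.90% of 23360 in H146, the NEUROD1 E-box in 24.3% and 19.2%, and the FOXA word in 2.54% and 7.53%. The form TGTAATCCC, which Alu repeats carry, made up 14 of the 74 TAATCC matches in H82-only regions (18.9%). Outside that form the log2 ratio was 1.60.

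Among other genes of the ERBB pathway (further ligands, sheddases, adaptors, the RAS-MAPK and PI3K-AKT routes, inhibitors, ERK response genes and transcription factors), a TSS region was present in both lines at 65 of 70 genes and in neither line at 4, whereas 1 gene had it for H82 alone and 0 for H146 alone, and 75.4% of all genes had one in both lines. The covered share of the locus was higher in H82 for 46 of 70 and at least 2-fold higher in H82 for 11, with none at least 2-fold higher in H146, and the median log2 ratio was 0.19. These covered shares were near those of all genes, of which 64.2% were higher in H82, 15.2% at least 2-fold higher in H82 and 1.44% at least 2-fold higher in H146, with a median of 0.20. The gene with a TSS region in H82 only was PIK3CD, the delta catalytic subunit of PI3K, whose locus held 42 regions in H82 and 11 in H146. Its canonical start had a region in both lines. The 4 without one were the ligands EGF and EPGN and the transcription factors TFAP2A and SOX10. The canonical start of TFAP2A had a region in both lines and that of SOX10 in H82 alone, whereas those of EGF and EPGN had none. Among the other ligands BTC (betacellulin) was at 4.69% in H82 and 2.02% in H146, while TGFA (5.54% and 5.55%) and EGF (1.89% and 1.99%) hardly differed.

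Sheddases free the ligands from the membrane. All 5 genes listed as sheddases or their regulators had a TSS region in both lines and a larger covered share in H82. The same held for all 8 genes listed as adaptors or other signalling partners, against 75.4% and 64.2% of all genes. ADAM10, a sheddase, was at 5.42% in H82 and 2.14% in H146, and SRC, a kinase that acts beside the receptors, at 33.3% and 12.6%. In the MAPK pathway the kinase MAP2K2 (MEK2) was at 27.1% and 8.23%, whereas HRAS (36.0% and 41.4%) was higher in H146. In the PI3K group the regulatory subunit PIK3R3 was at 11.1% and 4.75%. The 15 inhibitors, among them ERRFI1 and the SPRY genes, had a median log2 ratio of -0.13 and no member past 2-fold, and the 8 ERK response genes one of -0.02. Of 7 transcription factors known at ERBB genes, 4 were past 2-fold in H82, against 15.2% of all genes. These were TFAP2C, with 9 regions in H82 and 1 in H146, SOX10 (7.56% and 3.26%), FOXO1 (5.83% and 2.41%) and FOXO3 (13.1% and 6.30%). The log2 ratios of SOX10 (1.22) and FOXO3 (1.06) passed 2-fold by less than the ratio of the whole genome (0.27). Of the rest, ELF3 was slightly higher in H82 (0.14), whereas TFAP2A (-0.26) and GRHL2 (-0.56) were higher in H146.

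Over the gene body alone, without the flanks, 4 members were at least 2-fold higher in H82 (ERBB2, NRG2, NRG3 and NRG4), against 18.4% of all genes. ERBB2 was 2.35-fold and NRG4 2.02-fold higher in the body, and 1.66-fold and 1.88-fold over the locus.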

How the data were processed

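ATAC-seq libraries of H82 and H146 were trimmed, aligned to hg38 and called with MACS2 by the authors, who joined the regions of all libraries of a line within 500 bp (per the labels and the study's methods: Trim Galore 0.4.4, Bowtie2 2.3.4, featureCounts 1.6.0). Whether cut sites were shifted for Tn5 is not given in the sources used here. The deposited region starts and ends are positions in bp, another kind of value than a count or signal. No score and no value per library was used, so depth is unknown. Line, depth, library number, DNA copies and the response to FHD-286 cannot be told apart. The methods place 3 untreated H146 libraries in 1 sequencing batch and the other H146 libraries in another, and the atlas joins both.

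GENCODE release 44 (hg38) gave 20007 protein-coding genes on 24 chromosomes, the first row of each symbol. This was set after values had been seen: the design named all protein-coding genes, which gives 20033 rows, and the shares hardly moved (75.4% with a TSS region in both lines either way). The locus was the body and 50 kb to either side. Sharing needed 1 bp of overlap and was checked with bedtools 2.31.1; all else used Python 3.11.15, numpy 2.4.6 and scipy 1.17.1, tested on simulated data. Log2 ratios of region numbers carry a pseudocount of 0.5. Intervals are exact at 95% and cover counting only. The genes and lists were chosen with earlier results of these data known. Named were all 10 genes, pathway genes that differed in TSS region or past 2-fold, and per gene the region at the start and the widest line-only regions. Some pathway genes that met neither rule are also named, among them HRAS, TGFA, EGF, ELF3, GRHL2, ERRFI1 and the SPRY genes. Sequence was read from hg38 by coordinates. The counts of transcript starts, of repeated 31-base words and of TGTAATCCC were added after the values were seen. Some genes, a motif word and some sequences that these rules name are not reported here.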

Additional observations from a re-analysis of the deposited data

How the results depend on the processing

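Each line had 1 atlas, so no library could be left out. No paired analysis was possible because the files carry no value per library. The number of members with a TSS region in 1 line only fell from 1 (ERBB3) to 0 with 5 kb to either side, with any protein-coding transcript TSS and with the Ensembl canonical TSS. The number at least 2-fold higher in H82 was 4 over the gene body and 1 with regions of at least 500 bp, where NRG3 dropped to a log2 ratio of 0.83. The share of H82 regions shared was 39.9% when 50% of both regions had to overlap, 62.8% with regions of at least 500 bp and 45.2% without ERBB4. That of H146 regions was 58.6% and 67.5% under the first pair of these settings. With 50% overlap the median width of line-only regions was 361 bp in H82 and 417.5 bp in H146. Pathway genes with a TSS region in 1 line only numbered 3 with 5 kb and 2 with regions of at least 500 bp, and those at least 2-fold higher in H82 numbered 7 after subtracting the genome ratio. NRG4 passed 2-fold with 100 kb flanks (log2 1.05), over the gene body (1.01) and without bases near other TSSs (1.97). The last of these settings also removed bases of the region at the most 5′ start of NRG4, which covers the start of TMEM266. NRG2 stayed past 2-fold in all 7 alternatives, with log2 ratios from 1.37 to 2.03. None of these subtracted the ratio of the surrounding 1 Mb to either side, which was 1.12 for NRG2. Without regions of repeated sequence, an alternative added after seeing the data, 56.8% of H82 and 82.6% of H146 regions were shared. Of all values under alternatives, 132 stayed within a set band around the value reported or close to its count, and 15 moved further. Some of the values named here are among the 132. For the covered share of single genes the band took its width from the counting interval of region numbers. That interval was wide (-2.90 to 2.90 at AREG), so staying within the band says little about how stable these ratios are. ERBB3 had a log2 ratio of -0.05 after subtracting the genome ratio and NRG4 one of -0.02 after subtracting the chromosome ratio. Depth is unknown and limits every absence of a region.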
